A study of Mus musculus with 9 samples.

Results

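Dbp, Tef, Hlf, Nfil3, Ciart, Bhlhe40, Bhlhe41 and Rora encode transcription factors and repressors that carry the rhythm of the circadian clock to its target genes. These 8 genes were taken by symbol, and each was found once among the 27179 Entrez genes of the deposited expression table. The rule that picks them uses gene symbols and no measured value.

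Expression was measured by poly(A) RNA sequencing of bulk liver from C57BL/6J mice labelled wild type. All 9 mice received an AAV8 vector, into the retro-orbital sinus, at 17 months of age and at 3e+11 vector genomes per mouse, and a flash-frozen piece of the m-lobe was taken 3 weeks later. The vector carried saCas9 behind the hepatocyte promoter TBG and a U6-driven guide RNA. In 4 mice the guide was directed at Rosa26, a locus commonly used as a neutral cutting site (sgRosa26, libraries A to D), and in 5 mice at Ccnd1, which encodes cyclin D1 (sgCcnd1, libraries E to I). The controls therefore also carried the vector, the nuclease and a cutting guide, and cells in which the TBG promoter is silent were not targeted. The mice were kept on normal chow under 12 h light and 12 h dark. The labels give neither the time of day of harvest nor the sex.

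In the clock, the heterodimer of CLOCK or NPAS2 with BMAL1 binds E-boxes (CACGTG) and drives, among others, the genes for its own repressors. DBP, TEF and HLF, the PAR bZIP family, activate genes through D-boxes, and NFIL3 binds the same element and represses. RORA and its relatives activate Bmal1 and Npas2 through ROR elements, where NR1D1 and NR1D2 repress. In mouse liver, Dbp transcripts swing with time of day more widely than most, and the PAR bZIP factors are known for their control of drug and lipid metabolism genes.

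The promoters of the members were searched for these 3 elements. RefSeq promoter windows on GRCm38.p6 matched 7 of the 8 members (not Bhlhe40), with 2 start sites for Tef. In windows from 250 bases before to 50 after each start, searched on both strands, the canonical E-box CACGTG was present in 4 of 8 windows (Ciart, Bhlhe41 and both of Tef), against 7.15% of 32851 promoter windows of the same length. The Ciart window held 3 copies, a number reached by 0.0883% of all windows. Its stretch upstream of the start (chr3:95882259-95882408, minus strand) and that upstream of the second Tef start (chr15:81811234-81811383, plus strand, inside the Tef gene) are shown 5′ to 3′ with the E-boxes in capitals, followed by the single E-boxes of the first Tef start (chr15:81802534-81802563, plus strand) and of Bhlhe41 (chr6:145865556-145865585, minus strand) with their flanks.
Ciart: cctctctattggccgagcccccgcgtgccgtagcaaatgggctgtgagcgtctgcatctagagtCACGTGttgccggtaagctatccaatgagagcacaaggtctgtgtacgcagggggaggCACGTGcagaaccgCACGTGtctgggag
Tef second start: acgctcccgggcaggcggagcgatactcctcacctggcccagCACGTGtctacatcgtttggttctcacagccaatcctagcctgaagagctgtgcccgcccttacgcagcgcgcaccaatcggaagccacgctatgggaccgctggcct
Tef first start: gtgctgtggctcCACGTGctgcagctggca
Bhlhe41: tggtacgttccgCACGTGagctgggtgctg

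The Ciart E-boxes begin 116, 58 and 44 bases before the start, those of Tef 127 and 138 bases before their starts, and that of Bhlhe41 153 bases before. D-boxes (TTATGTAA or TTACGTAA) were in 0 of 8 windows and in 1.06% of all windows. The ROR core (TAGGTCA or TGGGTCA) was in 1 of 8 windows and in 6.45% of all. That match was in Nfil3 (chr13:52981033-52981062, minus strand, inside the Nfil3 gene), shown with its flanks and with the core, read on the opposite strand, in capitals.
Nfil3: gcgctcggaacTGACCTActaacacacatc

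These matches describe letters in a window and were not measured as binding. The windows of Dbp, Hlf and Rora held none of the 3 motifs.

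The libraries held 10.8 to 20.2 M reads assigned to genes. A normalized count is a read count divided by a size factor of its library. The targeted gene Ccnd1 was at 684, 800.3, 625 and 867 normalized counts in the control libraries A to D and at 428, 347, 370.1, 339 and 325 in E to I. The groups did not overlap, and the sgCcnd1 mean was 48.6% of the control mean. Ccnd1 fell by 1.03 on the log2 scale (limma, adjusted p = 0.0116), and the adjusted p was between 0.0559 and 0.0852 when library B, D, F, H or I was left out. Library H stands apart from the other libraries: Ddx3y, a Y-linked gene, was at 2.00 normalized counts in H and at 810 to 1154 in the other 8 libraries. Values without H are therefore given beside those that lead the results. Summed markers of hepatocytes spanned 1.68 to 2.02 M normalized counts in the controls and 1.58 to 2.06 M with sgCcnd1. Most of that sum came from Alb. Summed leukocyte markers did not overlap, at 3438 to 4379 in the controls and 2133 to 3379 with sgCcnd1, with 10 of 10 markers negative. Most of the leukocyte sum came from Cd74, with means of 1958 in the controls and 1021 with sgCcnd1, and from Lyz2, with 991 and 733. The sums of the other lists overlapped: 1725 to 2612 and 1729 to 2266 for Kupffer cells, 1844 to 2828 and 2076 to 2970 for endothelium, 3293 to 5207 and 2998 to 4412 for stellate cells, and 931 to 1908 and 753 to 1169 for cholangiocytes. NK and innate lymphoid markers summed to 18.4 to 43.8 and 13.4 to 35.5, with 0 of 6 past the filter on low values. Stellate markers were negative for 5 of 6, and at an unadjusted p under 0.05 Pdgfrb (-0.50) and Col1a1 (-0.76) were lower, as was the cholangiocyte marker Sox9 (-0.51). These were named after their values were seen. In bulk liver, fewer cells of a type and less RNA per cell cannot be told apart.

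To compare the members with each other, values were divided by the length of the exons. On this per-kilobase scale, over the 9 libraries, Bhlhe40 was at 342 ± 125 normalized counts per kb (SD, n = 9), Nfil3 at 281 ± 63.2 and Tef at 203 ± 41.3. Hlf followed at 114 ± 19.9 and Dbp at 106 ± 53.9. The 3 remaining genes were far lower, Ciart at 6.28 ± 3.23, Rora at 4.87 ± 1.48 and Bhlhe41 at 2.06 ± 0.844. Between neighbours in this order, the ranges of mean ± SD overlapped for Bhlhe40 and Nfil3, for Nfil3 and Tef, for Hlf and Dbp, and for Ciart and Rora. They did not overlap from Tef to Hlf, from Dbp to Ciart and from Rora to Bhlhe41. The order of Hlf and Dbp and that of Ciart and Rora turned between the groups. In the controls the means per kb were 116 for Hlf, 67.8 for Dbp, 3.74 for Ciart and 4.34 for Rora. With sgCcnd1 they were 113, 136, 8.32 and 5.30.

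Whether loss of Ccnd1 in hepatocytes came with a different output of the clock was asked gene by gene. The labels give no harvest times, so the part of time of day in these comparisons was not tested. Of the 8 members, 3 were higher in the sgCcnd1 group at an unadjusted p under 0.05 (Dbp, Tef and Ciart) and 0 lower, and 0 passed the adjusted threshold in the limma fit over 12993 genes. Over all genes, 5.22% were higher and 5.74% lower at that unadjusted threshold (11.0% in either direction), and 0.00770% passed the adjusted threshold. DESeq2 on the recovered reads called 0 of the 8 members and 0.800% of all genes. The log2 fold changes of the members were positive for 6 and negative for 2, against 52.9% positive over all genes, with a median of 0.37 against 0.01. Because the genes were chosen with earlier results of these data known, these counts describe them and are no independent evidence.

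**Figure D1:**
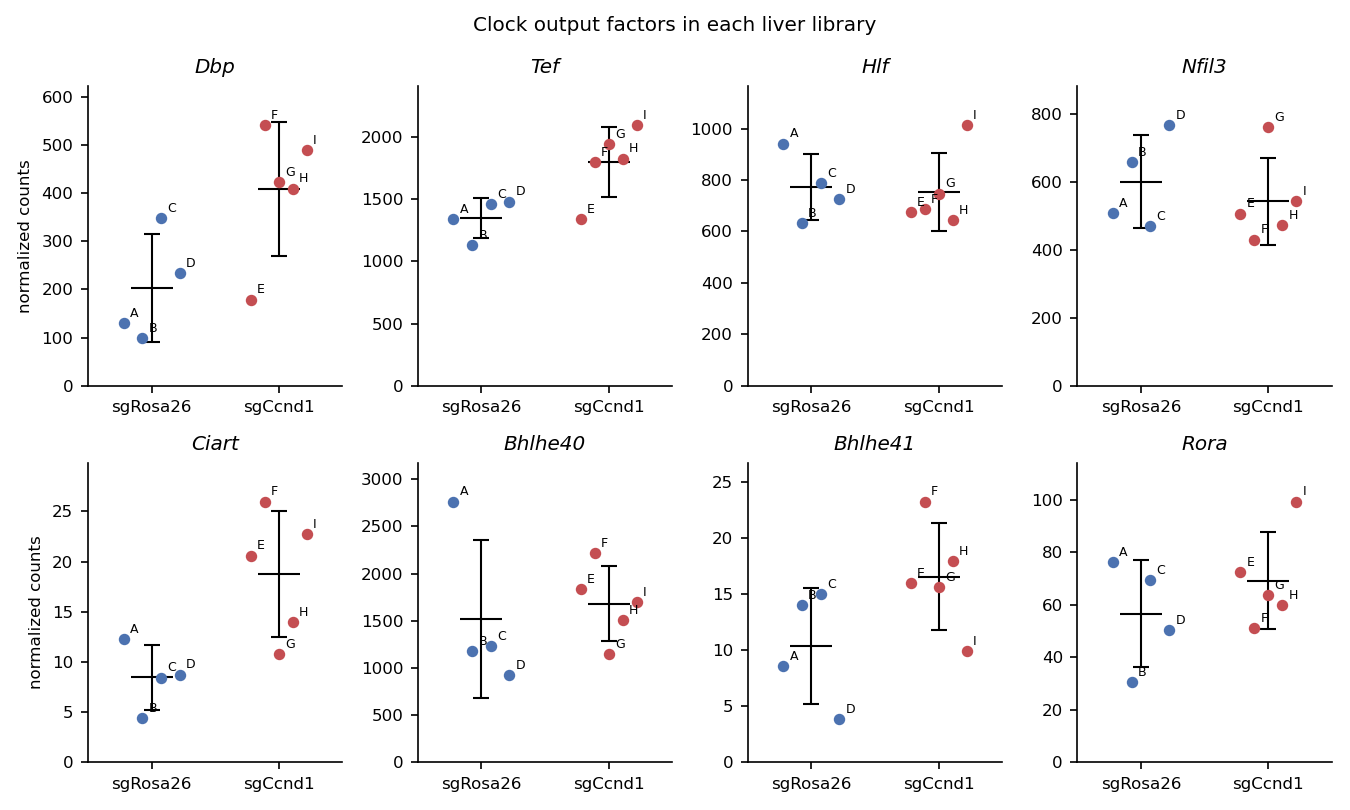
Normalized counts of the 8 members in each liver library (points, lettered), with the group mean and SD (bars), for 4 sgRosa26 and 5 sgCcnd1 mice. Each panel has its own vertical axis from 0. For Dbp, Tef, Ciart and Bhlhe41, 4 of 5 sgCcnd1 libraries lie above the highest control, and the groups overlap in every panel.

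Dbp, the PAR bZIP activator first found on the albumin promoter (Entrez 13170, chr7:45705100-45710203, plus strand), was at 130.3, 99.0, 348.2 and 234.1 normalized counts in A to D and at 179.1, 540.7, 422.0, 408.8 and 488.2 in E to I. Libraries F to I were above every control, while E was below the control mean. The means were 203 ± 113 (SD, n = 4) and 408 ± 138 (SD, n = 5). The log2 fold change was 1.08 (SE 0.369, 95% interval 0.28 to 1.88); limma gave an adjusted p of 0.334. It was 1.06 without library H (limma adjusted p = 0.563) and 1.35 without E, the low sgCcnd1 library (limma adjusted p = 0.133). With 1 library left out it ran from 0.80 without B (limma adjusted p = 0.628) to 1.40 without C. Dbp missed the unadjusted threshold in DESeq2 without H. Dbp shares 741 bases of its span with Sphk2, whose log2 fold change was 0.13 (limma adjusted p = 0.660).

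Tef, the thyrotroph embryonic factor (Entrez 21685, chr15:81802673-81826863, plus strand), was high in the same 4 libraries as Dbp. It was at 1337, 1127, 1458 and 1478 normalized counts in A to D and at 1337, 1796, 1941, 1822 and 2092 in E to I. Again F to I were above every control and E was not. The means were 1350 ± 161 (SD, n = 4) and 1798 ± 283 (SD, n = 5), a log2 fold change of 0.41 (SE 0.128, 95% interval 0.13 to 0.68) and an adjusted p of 0.306 in limma. Without H it was 0.40 (limma adjusted p = 0.543). With 1 library left out it ran from 0.32 without B (limma adjusted p = 0.607) to 0.51 without E (limma adjusted p = 0.128).

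Hlf, the hepatic leukemia factor and remaining PAR bZIP gene (Entrez 217082, chr11:90336535-90390917, minus strand), had similar means in the 2 groups. It was at 942, 634, 789 and 725 normalized counts in A to D and at 675, 688, 747, 645 and 1013 in E to I. Library I was the only one above every control, and the others lay in the control range. The means were 773 ± 130 (SD, n = 4) and 754 ± 150 (SD, n = 5), and the log2 fold change was -0.04 (95% interval -0.35 to 0.27; limma adjusted p = 0.941). Its sign turned when A or H was left out. Its interval excludes log2 fold changes as large as the estimates of Dbp and Tef.

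Nfil3, the D-box repressor (Entrez 18030, chr13:52967209-52982878, minus strand), was at 509, 660.0, 470.2 and 768 normalized counts in A to D and at 508, 431, 762, 473 and 545 in E to I. Library F was below the lowest control and G nearly as high as the highest. The means were 602 ± 138 (SD, n = 4) and 544 ± 129 (SD, n = 5), and the log2 fold change was -0.15 (95% interval -0.53 to 0.23; limma adjusted p = 0.784). With 1 library left out it ran from -0.28 without G to -0.021 without D. The ratio of Dbp to Nfil3 in the same library, activator over repressor of the D-box, was 0.256, 0.150, 0.741 and 0.305 in A to D and 0.353, 1.26, 0.554, 0.865 and 0.896 in E to I. In F, H and I the ratio was above every control, and in E and G it was below that of control C.

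Among the E-box repressors, Ciart, also called Chrono, a repressor of CLOCK and BMAL1 (Entrez 229599, chr3:95878500-95882257, minus strand), was at 12.3, 4.38, 8.45 and 8.74 normalized counts in A to D and at 20.6, 26.0, 10.8, 14.0 and 22.7 in E to I. All but G of the sgCcnd1 libraries exceeded the highest control. The means were 8.47 ± 3.24 (SD, n = 4) and 18.8 ± 6.27 (SD, n = 5). On the log2 scale, where the added 1 understates changes of low genes, the difference was 1.07 (SE 0.336, 95% interval 0.34 to 1.80), with an adjusted p of 0.306 in limma, and 1.16 without H. With 1 library left out it ran from 0.82 without B (limma adjusted p = 0.598) to 1.26 without A. With 10 added in place of 1 it was 0.63. These values rest on 5 to 29 reads per library. The exact 95% Poisson interval runs from 1.62 to 11.7 around the 5 reads of B and from 19.4 to 41.6 around the 29 of F, and covers counting error only. Ciart lies within the span of C920021L13Rik, a noncoding gene whose log2 fold change was -0.34 (limma adjusted p = 0.794), and whether counting used the strand is not given in the sources used here.

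Bhlhe40, or DEC1 (Entrez 20893, chr6:108660629-108666925, plus strand), binds E-boxes and represses. It was at 2763, 1176, 1233 and 924 normalized counts in A to D and at 1835, 2217, 1144, 1505 and 1699 in E to I. Control A was the highest of all libraries, and the other 3 controls were lower than 4 of the 5 sgCcnd1 libraries. The means were 1524 ± 837 (SD, n = 4) and 1680 ± 397 (SD, n = 5), with a log2 fold change of 0.24 (95% interval -0.35 to 0.83; limma adjusted p = 0.766). It was 0.57 without A (limma adjusted p = 0.257) and 0.047 without D, and 0.13 with edgeR (TMM), with DESeq2 and without F.

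Bhlhe41, or DEC2, its close relative (Entrez 79362, chr6:145858243-145865420, minus strand), was at 8.61, 14.0, 15.0 and 3.88 normalized counts in A to D and at 16.0, 23.3, 15.7, 18.0 and 9.93 in E to I, from 4 to 26 reads. Libraries E to H lay above every control and I below 2 of them. The means were 10.4 ± 5.17 (SD, n = 4) and 16.6 ± 4.80 (SD, n = 5), with a log2 fold change of 0.72 (95% interval -0.08 to 1.53; limma adjusted p = 0.501) that ranged from 0.36 without D to 0.94 without C. With 10 added in place of 1 it was 0.40. Leukocytes also express BHLHE40, BHLHE41 and NFIL3. The leukocyte marker sums given above were lower with sgCcnd1, with 6 of the 10 markers at an unadjusted p under 0.05 and 0 at 0 in every library, and their part in the values of these 3 genes was not tested.

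Rora, an activating nuclear receptor of the ROR elements (Entrez 19883, chr9:68653404-69388246, plus strand), was at 76.2, 30.7, 69.5 and 50.5 normalized counts in A to D and at 72.4, 51.0, 63.6, 60.0 and 99.3 in E to I. Only I was above the highest control. The means were 56.7 ± 20.5 (SD, n = 4) and 69.3 ± 18.5 (SD, n = 5), with a log2 fold change of 0.33 (95% interval -0.24 to 0.89; limma adjusted p = 0.667) that was 0.07 without B and 0.49 without A. Without library H the log2 fold change was 0.37 for Rora, 0.27 for Bhlhe40, 0.68 for Bhlhe41 and -0.10 for Nfil3.

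**Figure D2:**
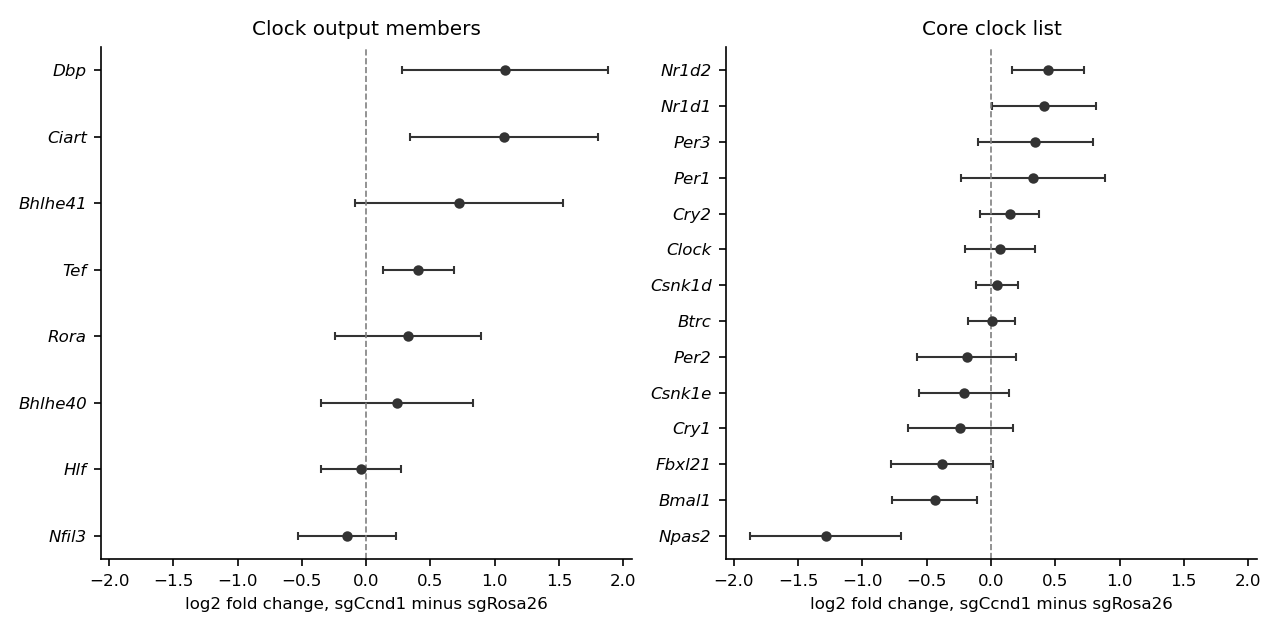
Log2 fold changes (points) with 95% intervals from limma (bars), sgCcnd1 minus sgRosa26, for the 8 members (left) and 14 genes of the core clock list (right). The dashed line marks no difference. The intervals of Dbp, Ciart and Tef (left) and of Nr1d1 and Nr1d2 (right) lie above 0. Those of Bmal1 and Npas2 lie below it, with Npas2 furthest. None of these genes passed the adjusted threshold in limma.

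The members also differed in how far libraries of 1 group lay apart. The SD of log2 values around the group means was 0.715 for Dbp, higher than in 99.4% of genes of similar level. Bhlhe40 had 0.523, above 98.7% of genes of similar level, and 0.317 when control A was left out. On the same yardstick, Nfil3 at 0.320 lay above 94.7%, Rora at 0.465 above 91.5%, Hlf at 0.252 above 87.6% and Tef at 0.220 above 79.9%. The SD of Tef was 0.146 when library E was left out. The median over all genes tested was 0.198. The low-count genes Ciart (0.517) and Bhlhe41 (0.606) lay above 62.5% and 78.4% of genes of similar level, and their SDs were 0.301 and 0.327 with 10 added in place of 1. Without library E the SD was 0.591 for Dbp and 0.654 for Bhlhe41, and their 95% intervals over all libraries overlapped, at 0.473 to 1.45 and 0.400 to 1.23. The labels do not give harvest times.

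Which members varied together was tested over the 28 pairs, with exact two-sided permutation of the 9 libraries. Dbp and Tef had r = 0.919 (exact permutation p = 0.000557, adjusted over the pairs 0.0156) and rho = 0.883 (exact permutation p = 0.00308, adjusted 0.0861). The permutation exchanged libraries across the groups, so its p also carries the group difference that both genes share. Subtracting group means left r = 0.857, for which no p was computed. Leaving out A and B, the libraries farthest from the median of Dbp, also left 0.857. Among the 28 pairs, 1 passed by Pearson's r and 0 by Spearman's rho, and without B or H the adjusted p of Dbp and Tef was 0.129 or 0.0514 by exact permutation. B was the lowest control for both genes and E the lowest sgCcnd1 library for both. Within the sgCcnd1 group, H, G and I ranked alike in both genes, while F was highest in Dbp and below those 3 in Tef.

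Hlf and Rora had r = 0.752 (exact permutation p = 0.0169, adjusted 0.237) and rho = 0.733 (exact permutation p = 0.0311, adjusted 0.352), and r was 0.849 after group means were subtracted and 0.550 without A and I. Nfil3 and Bhlhe40 ran in opposite directions, with r = -0.707 (exact permutation p = 0.0372, adjusted 0.347) and rho = -0.65 (exact permutation p = 0.0666, adjusted 0.355), and r was -0.421 without D and G. Neither pair passed when adjusted over the 28 pairs. Within the PAR bZIP family, r of Hlf was 0.15 with Dbp and 0.32 with Tef, or 0.27 and 0.55 after group means were subtracted. With 1 library left out, r of Hlf with Tef ran from -0.064 to 0.57 and that with Dbp from -0.14 to 0.49. The difference between these values and that of Dbp with Tef was not tested.

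**Figure D3:**
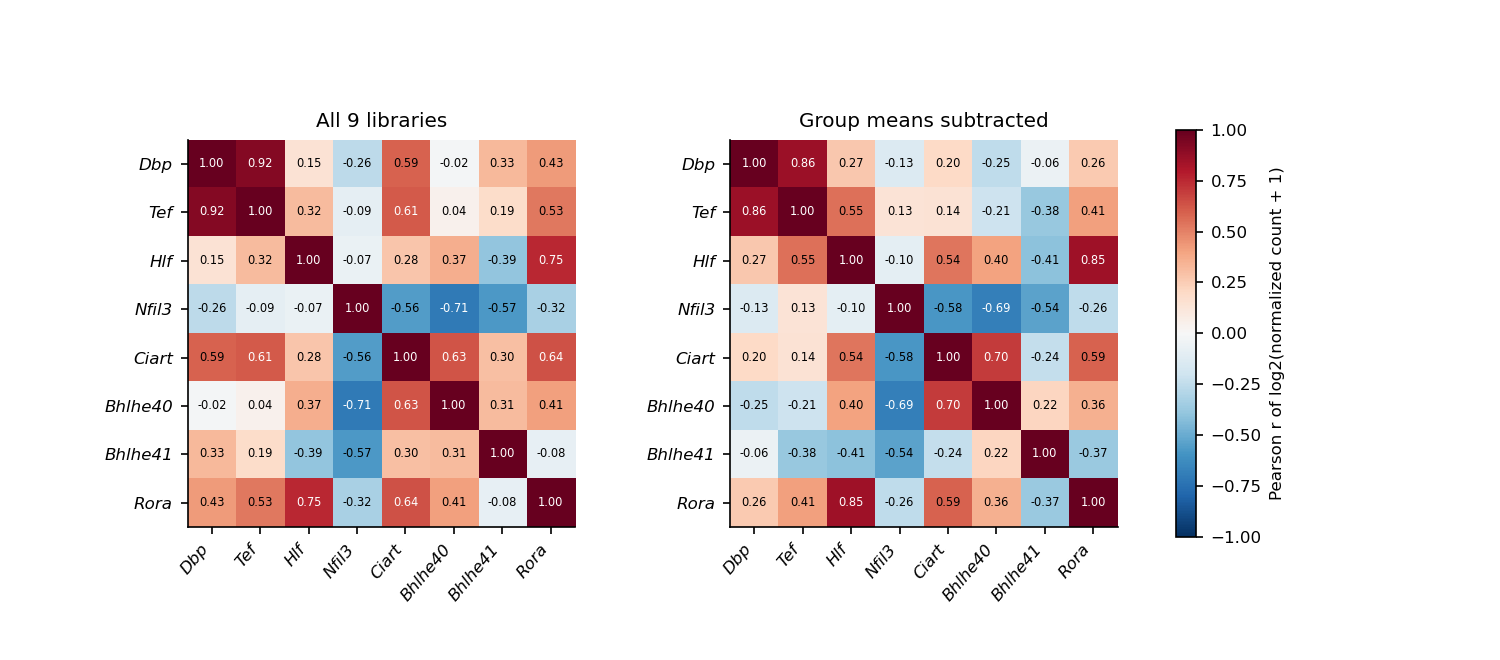
Pearson r of log2(normalized count + 1) for each pair of members over the 9 libraries (left) and after subtracting group means (right), coloured from -1 to 1. Dbp with Tef is the strongest pair off the diagonal on both sides, at 0.92 and 0.86, and Nfil3 is negative with Bhlhe40 on both.

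The rest of the clock was read from a list of 14 core genes, none of which passed the adjusted threshold in limma. At an unadjusted p under 0.05, 2 were higher (Nr1d1 and Nr1d2) and 2 lower (Bmal1 and Npas2), with a list median of 0.03. Nr1d1 missed that threshold in 8 of 11 alternatives that kept all libraries, edgeR and DESeq2 among them, and without A, B, G, H or I. Bmal1 missed it without B. Npas2, the partner of BMAL1 that can stand in for CLOCK, was at 83.6, 178, 96.7 and 106 normalized counts in A to D and at 72.4, 48.3, 36.2, 51.0 and 28.4 in E to I. The groups did not overlap, as was true of 3.89% of all genes and of 0 of the 8 members. Its log2 fold change was -1.29 (limma adjusted p = 0.225; DESeq2 adjusted p = 0.00362). Without library H it was -1.33 (limma adjusted p = 0.393; DESeq2 adjusted p = 0.0153).

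Bmal1, which encodes the obligate partner, was at 293, 411, 306 and 374 normalized counts in A to D and at 342, 215, 262, 257 and 207 in E to I, with a log2 fold change that came to -0.44 (limma adjusted p = 0.337). The 4 sgCcnd1 libraries below every control were F to I, and E was among the controls. Nr1d2, a ROR-element repressor, was at 845, 836, 1163 and 903 normalized counts in A to D and at 982, 1269, 1360, 1265 and 1483 in E to I, with a log2 fold change that came to 0.44 (limma adjusted p = 0.282). Its relative Nr1d1 had 0.41 (limma adjusted p = 0.451), and 0.25 without B. Without library H, Bmal1 had -0.45 (limma adjusted p = 0.563) and Nr1d2 0.44 (limma adjusted p = 0.530). F to I were thus the libraries high in Dbp, Tef and Nr1d2 and low in Bmal1, and E lay in the control range for each of these 4 genes. The summed leukocyte markers divided the libraries in a similar way, at 3379 in E and 2133 to 2492 in F to I, against 3438 to 4379 in the controls, and their part in these values was not tested. Ccnd1 was at 428 normalized counts in E and 325 to 370.1 in F to I, against 625 to 867 in the controls. Its part in the split between E and F to I was not tested either. As a description over 9 libraries that share these groups, r of Dbp was 0.931 with Nr1d2, 0.930 with Per3, -0.823 with Bmal1 and -0.806 with Npas2, and r of Tef with Npas2 was -0.938.

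**Figure D4:**
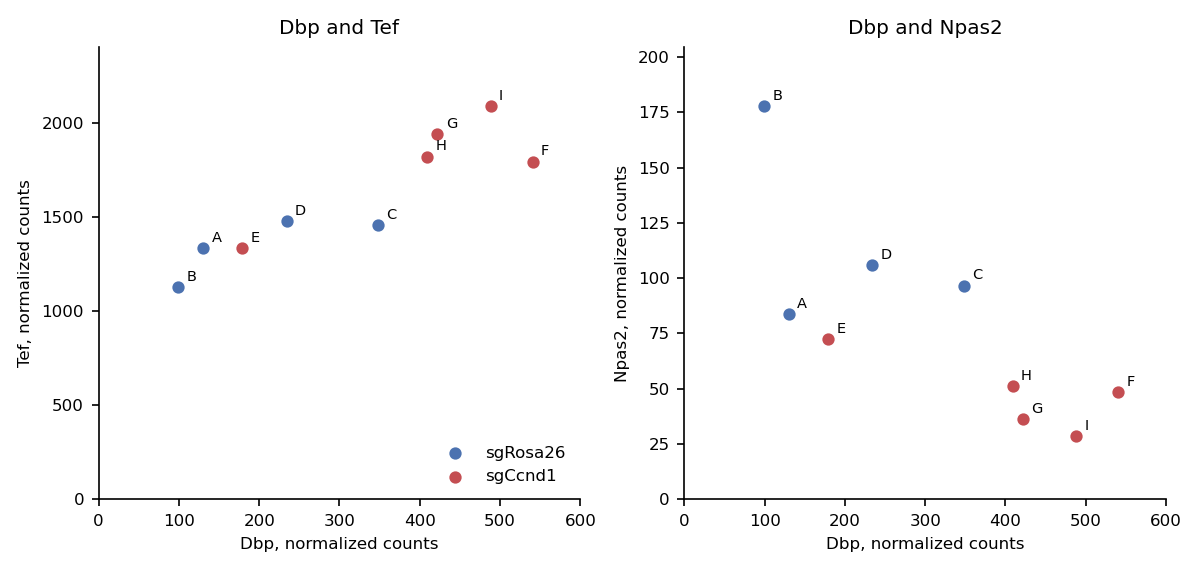
Normalized counts of Tef (left) and Npas2 (right) against those of Dbp in each lettered library, 4 sgRosa26 and 5 sgCcnd1. Library E (179.1 for Dbp) lies among the controls on both axes for Tef and just below the lowest control for Npas2.

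Among the remaining core genes, log2 fold changes were 0.33 for Per1, -0.19 for Per2, 0.35 for Per3, -0.24 for Cry1 and 0.15 for Cry2, the period and cryptochrome repressors. With 1 library left out, Per1 ran from 0.17 (G) to 0.55 (A), Per2 from -0.30 (F) to -0.090 (G), Per3 from 0.22 (B) to 0.52 (C), Cry1 from -0.35 (E) to -0.091 (D) and Cry2 from 0.063 (A) to 0.19 (C). Fbxl21 had -0.38, with a range of -0.57 (C) to -0.23 (D), and the kinase gene Csnk1e -0.21, with a range of -0.35 (D) to -0.13 (B). Clock, at 0.07, Csnk1d, at 0.05, and Btrc, at 0.01, each turned negative under at least 1 alternative.

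Genes reported to be driven by each kind of factor were counted in the same way. Of 13 reported PAR bZIP targets tested, 1 was higher at an unadjusted p under 0.05 and 0 lower, 7 were positive and 6 negative, and the median was 0.02. Alas1, the rate-limiting enzyme of heme synthesis, was that gene, at 2213, 1394, 866 and 1650 normalized counts in A to D and 1726, 3172, 1764, 4982 and 2681 in E to I, with a log2 fold change that came to 0.87 (limma adjusted p = 0.349). It was 0.64 without H (limma adjusted p = 0.595), and Alas1 missed the unadjusted threshold without C. Por, the electron donor of cytochrome P450s, had 0.25, Cyp7a1, the rate-limiting enzyme of bile acid synthesis, -0.41, and the lipase gene Lpl -0.35. Single libraries moved these 3 values: Por was 0.12 without G, Cyp7a1 -0.23 without F, and Lpl -0.60 without D and -0.22 without A. Of 13 reported ROR targets, 0 were higher and 2 lower at that threshold, Npas2 and Bmal1, with a median of 0.09. Apoa5 had 0.21, and 0.14 without H, and Plin2, the lipid droplet coat gene, 0.20, running from 0.047 without A to 0.32 without D.

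The E-box output list of 17 genes holds the members Dbp, Tef, Ciart, Bhlhe40 and Bhlhe41 as well. It also holds Nr1d1, Nr1d2, Per1, Per2, Per3 and Cry2 of the core list. At an unadjusted p under 0.05, 6 were higher (Dbp, Tef, Ciart, Nr1d1, Nr1d2 and Usp2) and 1 lower (Lonrf3), and the median was 0.33. Of the higher genes, only Usp2 was not already counted above. Outside the members, Usp2, a ubiquitin peptidase gene, was at 25.8, 36.8, 42.2 and 35.0 normalized counts in A to D and at 45.0, 64.5, 59.7, 60.0 and 93.7 in E to I, with no overlap and a log2 fold change that came to 0.85 (limma adjusted p = 0.253; 0.466 without H). Lonrf3 had -0.37, missing the unadjusted threshold without B, D, F, H or I, and Wee1, the mitotic inhibitor kinase, -0.30, and -0.45 without I. Of 12 other rhythm-linked genes tested, 1 was higher at an unadjusted p under 0.05 (Hspa1b, a heat shock protein gene, 0.60) and 0 lower, with a median of -0.11. Hspa1b was 0.35 without B and then missed that threshold. Klf10 had 0.59, and 1.004 without A, Cirbp, a cold-inducible RNA-binding protein gene, -0.17, and -0.10 without E, and Leo1 -0.11.

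Food intake and glucocorticoids also set liver rhythms, and their genes were counted in the same way. Of 12 fasting and feeding genes, 1 was higher at an unadjusted p under 0.05 (Angptl4, a lipase inhibitor, log2 fold change 0.97) and 0 lower, with a median of 0.09. Angptl4 missed that threshold in 2 of 11 alternatives that kept all libraries and without A, B, G, H or I. With 1 library left out, Fgf21 (0.41) ran from 0.27 (H) to 0.75 (D), Srebf1 (-0.26) from -0.36 (B) to -0.11 (A) and Pdk4 (-0.33) from -0.51 (A) to -0.027 (B). Of 8 glucocorticoid-responsive genes, 1 was higher and 1 lower, Klf9 at 0.69 (limma adjusted p = 0.227) and Sgk1 at -0.58. Klf9 passed in DESeq2 (adjusted p = 0.0135) but not without library H (DESeq2 adjusted p = 0.0831, log2 fold change 0.61 in limma). Sgk1 missed the unadjusted threshold in 2 of 11 alternatives that kept all libraries and without A, B, G, H or I and was -0.32 without A. The median of that list was 0.15. Zbtb16 had 0.97, and 0.63 without G, and Tat -0.05, the latter positive without library C, H or I. No gene of these lists passed the adjusted threshold in limma. The part of feeding and glucocorticoid genes in the values of the members was not tested.

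The genes whose pattern was most like each member were taken by Pearson's r over the 9 libraries among the 10345 genes that averaged 50 normalized counts or more. These are the extremes of many genes, and no p is attached. For Dbp they were Kif2a (r = 0.955) and Rnf149 (0.940), with Rhob (-0.952) and Lhfpl6 (-0.950) opposite. For Tef they were Golph3 (0.957) and again Rnf149 (0.953), with Fermt3 (-0.970) and Cmtm3 (-0.968) opposite. Rnf149 was the only gene among the closest to both.

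For Hlf they were Myo5b (0.945) and Ppig (0.921), with Ppp1r12c (-0.972) and Taf8 (-0.944) opposite. For Nfil3 they were Tomm40l (0.956) and Nr1i3 (0.934), the latter the xenobiotic receptor CAR and a reported PAR bZIP target, with Fbxo25 (-0.953) and Gpr146 (-0.921) opposite. For Ciart they were Dnajb4 (0.958) and Pdhb (0.929), with 2310015A10Rik (-0.920) and Syt12 (-0.910) opposite.

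For Bhlhe40 they were Nopchap1 (0.982) and Tnfaip1 (0.926), with Rnaset2a (-0.955) and 1810019D21Rik (-0.935) opposite. For Bhlhe41 they were Extl2 (0.964) and Ppp1ca (0.936), with Gss (-0.875) and Tax1bp3 (-0.874) opposite. For Rora they were Efr3a (0.978) and Setd2 (0.978), with S100a16 (-0.951) and Srsf9 (-0.943) opposite.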

How the data were processed

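Poly(A) RNA of 9 liver pieces was sequenced, 4 sgRosa26 and 5 sgCcnd1, 1 library per animal per the labels. Per the submitters' processing notes, the tools were Trim Galore 0.6.7, HISAT2 2.2.1, featureCounts 2.0.3, FastQC 0.74, MultiQC and DESeq2 2.11.40.8, with builds mm10 and GRCm38. The deposited signal is a normalized count, a read count divided by 1 size factor per library: 100% of values were whole reads within 0.01 of a read in units of the recovered value of 1 read. For library H that value was 0.999582, too near 1 to tell whole reads from rounding. Positions and exon lengths are from GRCm38 annotation.

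The 12993 genes averaging 10 or more normalized counts were tested on log2(normalized count + 1) with limma 3.58.1 in R 4.3.3 (trend, two-sided, Benjamini-Hochberg over all genes, threshold 0.05). The procedure was tested on simulated data. Alternatives were pseudocounts 0.1 and 10, filters of 0 or 100 on the mean, quantile and 75th percentile scaling, robust and weighted fits, edgeR 4.0.16 and DESeq2 1.42.0 on recovered reads, and each library left out.

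Members and lists were chosen with earlier results of these data known. Named were the members, Ccnd1, the core clock genes (some are not reported here), and from each other clock or target list up to 2 genes per direction with the smallest limma p, plus the 2 genes most and least like each member. The marker lists covered hepatocytes, leukocytes, Kupffer cells, NK and innate lymphoid cells, endothelium, stellate cells and cholangiocytes. Depth was 10.8 to 20.2 M reads, and intervals from reads cover counting error only, since reads carry no molecular identifiers.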

Additional observations from a re-analysis of the deposited data

Results flagged for a closer look

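Single libraries lay far from the rest of their group for 7 of the named genes and for depth, 8 of 90 groups examined, where chance flags about 1 in 20 (4.5). Among the members, Hlf was at 1013 normalized counts in sgCcnd1 library I, against 645 to 747 in the other 4, and Bhlhe40 at 2763 in sgRosa26 library A, against 924 to 1233 in the other 3. Klf10 was also high in library A, at 631 normalized counts against 181 to 212, and A had the lowest depth of its group, 12.2 M reads against 16.2 to 16.6 M. Wee1 was high in library I, at 105 normalized counts against 59.1 to 65.6. Clock was low in sgRosa26 library B, at 376 normalized counts against 490.4 to 494.6. Por was high in sgCcnd1 library G, at 3897 normalized counts against 2221 to 2526. Fgf21 was high in sgRosa26 library D, at 60.2 normalized counts against 22.1 to 24.4.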

How the results depend on the processing

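No member passed the adjusted threshold under any alternative, and 2 to 4 members had an unadjusted p under 0.05 in each. The limma fit called 0 genes higher and 1 lower over all genes, and DESeq2 called 34 higher and 70 lower, or 11 and 27 without library H. Genes called lower were 2 with quantile normalization, 0 with edgeR without H, and 0 to 2 with each library left out in turn. Genes higher at an unadjusted p under 0.05 numbered 678, and 413 with edgeR and 430 with DESeq2 without H; those lower numbered 746, and 351 at a minimum mean of 100. The choice of running the count models without H was made after seeing the data. Hlf turned positive with edgeR (0.0022) and DESeq2 (0.0086) without H, and ranged from -0.15 to 0.059 with each library left out. Pairs of members past the threshold were 1, and 0 with Spearman's rho, or 0 to 1 with each library left out. Clock was -0.028 without B (-0.028 to 0.16 with each library left out) and Csnk1d -0.0075 with quantile normalization. Btrc was -0.028 with 75th percentile scaling, -0.0082 with array weights, -0.0059 and -0.0016 with edgeR (TMM and RLE) and -0.00066 with DESeq2, and -0.043, -0.0087 and -0.0013 without B, E or I (-0.043 to 0.030). Tat was 0.090 with edgeR and 0.094 with DESeq2 without H, and 0.033, 0.091 and 0.0099 without C, H or I (-0.14 to 0.091). The cause of these differences was not tested. No paired analysis was possible because column names give animals, not replicate numbers. Depth limits Ciart and Bhlhe41 most, at 4 to 29 reads per library.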
